A study of Mus musculus with 52 samples.

Results

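The comparison set SCN from mice given 1 h of light against SCN from mice kept in the dark at CT17. The suprachiasmatic nucleus (SCN) is the paired nucleus of the hypothalamus that paces the circadian cycle, and circadian time (CT) is time on the animal's own cycle without light cues. Its members are 6 of the 52 samples of the series, taken by library name: both 1 h light libraries and all 4 CT17 dark libraries of the light-pulse experiment. All 6 came from wild-type male mice 11 to 12 weeks old, with no strain, transgene or drug named in the labels. The light group had light from CT17 for 1 h, and the dark group stayed in darkness until CT17. Since the series' design text places the dark controls at the beginning of the light, 1 h of light and 1 h of elapsed circadian time cannot be told apart in this comparison. Each library was mRNA from a pool of 6 pairs of SCN, so a library stands for several animals. Nothing in the labels says whether the pools of a group were collected on separate days, so p-values reflect nothing beyond library-to-library spread, some of which may be technical.

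Light that falls on the retina in the subjective night reaches the SCN through the retinohypothalamic tract, which releases glutamate and the peptide PACAP. The calcium and cAMP signals that follow act through kinases, among them the MAP kinases, and through the transcription factor CREB, which binds cAMP response elements in promoters. Genes that answer to CREB and to serum response factor without new protein synthesis are called immediate-early genes. The clock repressor genes Per1 and Per2 respond to light as well, and their induction at night is a known step in the resetting of the clock.

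The light libraries held 13421290 and 13621147 counted reads, against 13273367 and 13656162 in dark libraries 1 and 2 and 30149286 and 30072955 in dark libraries 1s and 2s. The libraries with the suffix s stand apart beyond their depth. In the fit of all 16 light-pulse libraries the suffix term itself passed for 3171 of 14524 genes, or 21.8%. What the suffix stands for is not given in the labels, nor whether same-numbered libraries with and without it share a pool. The SDs and p-values count them as separate libraries, and may understate the spread between pools if pools were shared. Both 1 h libraries carry no suffix and belong to label batch 2, whereas dark libraries 1 and 2 belong to label batch 1 and dark libraries 1s and 2s to label batch 2. A term for the suffix was therefore part of the fit, and the same comparison with dark libraries 1 and 2 alone stands beside it. In both, light libraries are set against dark libraries of the other label batch once the suffix is accounted for. Differences that go with the label batch can therefore enter the light change there and cannot be told apart from it. Throughout, per-library values are counts scaled to the TMM-adjusted library size (CPM), with the dark libraries in the order 1, 2, 1s and 2s. The tissue was checked against 10 SCN neuron markers, all of which passed the filter on low counts. Their summed level was 1135 and 1015 CPM in the light libraries and 1084, 939.8, 1278 and 1266 CPM in the dark libraries. Vip, the peptide of the retinorecipient SCN core, had 324 and 301 CPM in light and 317, 288, 404 and 388 CPM in the dark. Among markers of other cells, the 10 oligodendrocyte markers summed to 4143 and 6070.4 CPM in light and 7622, 8036, 8590.3 and 8913 CPM in the dark, and light lay below every dark library. The 8 meningeal fibroblast markers lay between 80.8 and 90.6 CPM in 5 of the libraries and reached 318 CPM in dark library 2s. The parts of these cells in the results below were not tested.

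After 1 h of light 184 genes differed from CT17 dark, which is 1.27% of the 14524 tested. Of these, 161 (1.11%) were higher and 23 (0.158%) were lower, by edgeR's quasi-likelihood test at a Benjamini-Hochberg adjusted p of 0.05. The median log2 change over all genes tested was -0.0054, and changes below are log2, light minus dark, ± SE of the fit. Changes upward were also larger, with 59 of the higher genes at a log2 change of 1 or more, against 4 of the lower genes at -1 or less. In 160 of the 161 higher genes both light libraries lay above all 4 dark libraries, and in all 23 lower genes both lay below, where 11.4% and 12.4% of all genes tested show such a separation. The exception among the higher genes was Rgs2. With dark libraries 1 and 2 only, in a fit of the 12 libraries without the suffix, 119 of 14390 genes (0.827%) were called, 110 (0.764%) higher and 9 (0.0625%) lower. All 161 higher genes kept their sign there and 109 kept their call, while all 23 lower genes kept their sign and 6 kept their call. The signs were all but fixed in advance, since the genes were chosen on libraries that include these. With the label batch as the term in place of the suffix, 1218 genes were called, 638 higher and 580 lower, and these held 170 of the 184. In that fit the dark libraries of the light libraries' own batch are 1s and 2s. Differences that go with the suffix can therefore enter the light change there and cannot be told apart from it.

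**Figure D1:**
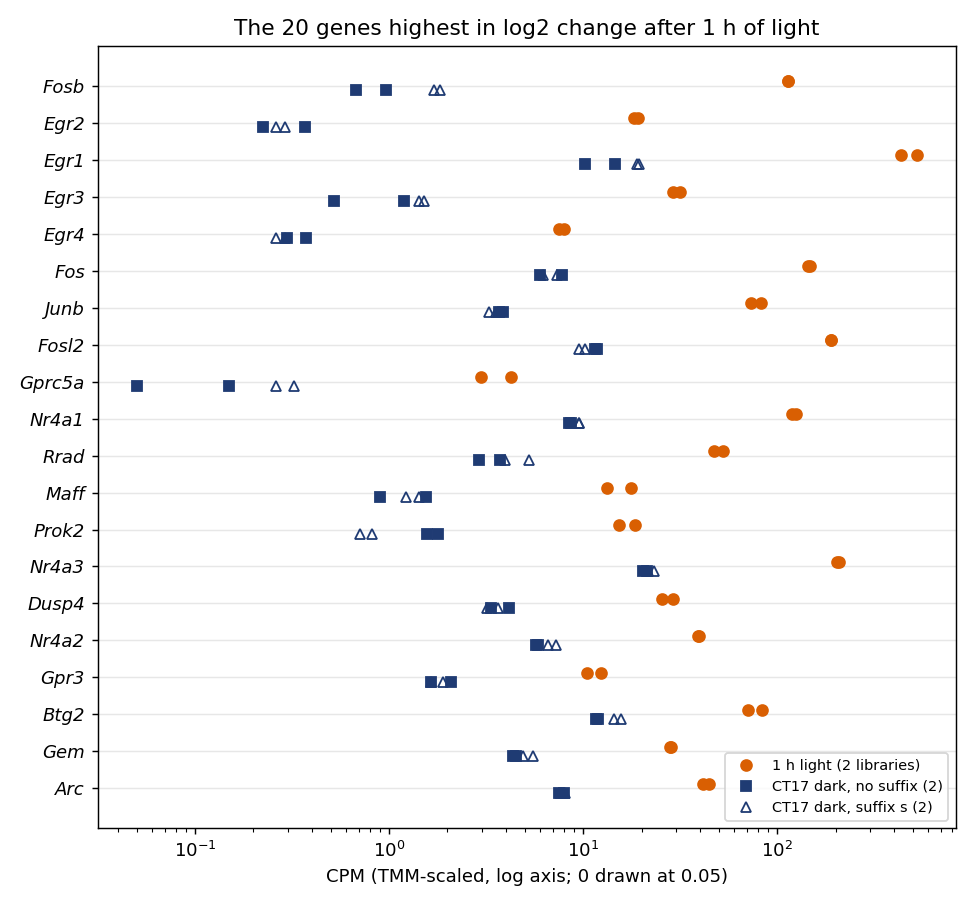
CPM on a log axis in each of the 6 libraries for the 20 genes with the largest positive log2 change among those called, separated and at a mean of 1 CPM or more. Orange circles are 1 h light, filled squares are dark libraries 1 and 2, and open triangles are dark libraries 1s and 2s. Separation of the groups was a condition of the choice, so the plot shows how far apart they lie.

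Genes of AP-1 subunits were among those with the largest changes. AP-1 is a dimer of a Fos-family and a Jun-family protein, and its genes are classical immediate-early genes. Of 9 AP-1 subunits and relatives tested, 7 were higher and none lower, with a list median of 4.00. Fosb had 114 and 114 CPM in the light libraries, against 0.674, 0.964, 1.71 and 1.82 CPM in the dark libraries. The light libraries stood far above the dark ones and differed little from each other, and the log2 change was 6.64 ± 0.18 (SE, adjusted p = 5.18e-12). Fos, whose protein is the common marker of light-activated SCN neurons, had 144 and 149 CPM in light and 5.99, 7.79, 6.24 and 7.31 CPM in the dark, a change of 4.40 ± 0.14. Junb had 73.2 and 82.4 CPM in light and 3.67, 3.86, 3.28 and 3.58 CPM in the dark, a change of 4.35 ± 0.15. Both again showed groups that did not overlap. Fosl2, the Fra-2 subunit, had 189 and 190.2 CPM in light against 11.8, 11.5, 9.53 and 10.2 CPM in the dark, a change of 4.13 ± 0.13. Fosl1, which encodes Fra-1, was scarce: it had 2.13 and 2.09 CPM in light and 0.225, 0, 0.161 and 0.0975 CPM in the dark. Its log2 change of 4.00 ± 0.46 rests on a group with 1 library at 0 and depends on the small count added to it. Jun, by contrast, was already at 41.0, 50.4, 37.6 and 40.5 CPM in the dark and reached 111 and 112 CPM in light, a change of 1.31 ± 0.091. The stress-responsive relative Atf3 rose by 1.95 ± 0.30, while Jund and Jdp2 did not pass (changes of 0.38 and 0.16).

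All 4 Egr genes, which encode zinc-finger immediate-early factors, were higher. Egr1 had 523 and 435 CPM in light and 10.2, 14.6, 19.4 and 18.9 CPM in the dark. The log2 change was 5.07 ± 0.16 (adjusted p = 1.69e-11), and within the dark group libraries 1s and 2s were the highest. Egr2 had 19.1 and 18.2 CPM in light and 0.225, 0.371, 0.290 and 0.260 CPM in the dark, a change of 5.79 ± 0.24. Egr3 and Egr4 rose by 4.95 ± 0.22 and 4.58 ± 0.29. Nab2, a corepressor that binds Egr proteins and is itself one of their targets, had 16.9 and 16.6 CPM in light against 7.19, 6.60, 8.66 and 9.95 CPM in the dark, a change of 1.28 ± 0.12. Its relative Nab1 had a change of 0.065 ± 0.063 and did not pass (adjusted p = 0.91). The list of 6 had 5 genes higher and none lower, with a median of 4.76.

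The Nr4a genes encode orphan nuclear receptors that act without a known natural ligand, and all 3 were higher. Nr4a3 had 207 and 204 CPM in light and 21.3, 20.3, 21.6 and 23.3 CPM in the dark, a change of 3.26 ± 0.15. Nr4a1 had 125 and 120.0 CPM in light and 8.69, 8.46, 9.56 and 9.56 CPM in the dark, a change of 3.78 ± 0.12. Nr4a2 rose by 2.78 ± 0.15, with 39.3 and 39.4 CPM in light. The spread within each group was small beside the distance between the groups for all 3.

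Compared per gene length, the immediate-early transcripts differed in abundance as well as in change. The authors' RPKM values averaged 105 in light and 3.57 in the dark for Egr1, the highest level of these families after light. Fos followed at 61.1 RPKM in light and 2.94 in the dark, and Nr4a1 at 48.6 and 3.71. Fosb, first by log2 change, had 17.9 RPKM in light and 0.210 in the dark. Its RPKM level after light was thus below those of Egr1, Fos and Nr4a1, and its large ratio goes with a dark level near 0.

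Npas4 encodes an activity-dependent bHLH-PAS factor, and at 1 h its level did not differ detectably from the dark. It had 13.0 and 9.86 CPM in light and 10.7, 9.27, 11.5 and 11.3 CPM in the dark, and the groups overlapped. The log2 change was 0.12 ± 0.18 (adjusted p = 0.957). Its dimer partners and relatives Arnt, Arnt2, Npas1 and Npas3 had changes of -0.18, -0.040, 0.36 and 0.082, and none of the 5 passed. At 0.5 h of light Npas4 stood 2.14 ± 0.12 above the dark, and the step between the times was -2.02 from 0.5 h to 1 h (adjusted p = 1.87e-05).

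Among 30 other early-response regulators, 12 were higher and none lower, with a median of 0.39. Maff, a small Maf factor without an activation domain of its own, had 13.3 and 17.6 CPM in light against 0.899, 1.56, 1.22 and 1.43 CPM in the dark, a change of 3.59 ± 0.22. Btg2, an antiproliferative immediate-early gene, had 83.3 and 71.2 CPM in light and 12.0, 11.6, 15.6 and 14.4 CPM in the dark, a change of 2.61 ± 0.095. Both genes showed complete separation. Csrnp1, a nuclear protein induced by axin and growth signals, rose by 2.38 ± 0.20, and the zinc-finger factor Klf4 by 2.096 ± 0.20. Ier2 rose by 1.80 ± 0.14 and Tiparp, a mono-ADP-ribosyltransferase, by 1.33 ± 0.090. The remaining higher members were Sertad1, Cebpb, Gadd45b, Klf10, Gadd45g and Cyr61, with changes between 0.88 and 1.65. Srf, which encodes serum response factor itself, had a change of 0.33 ± 0.080 that did not pass (adjusted p = 0.0684).

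**Figure D2:**
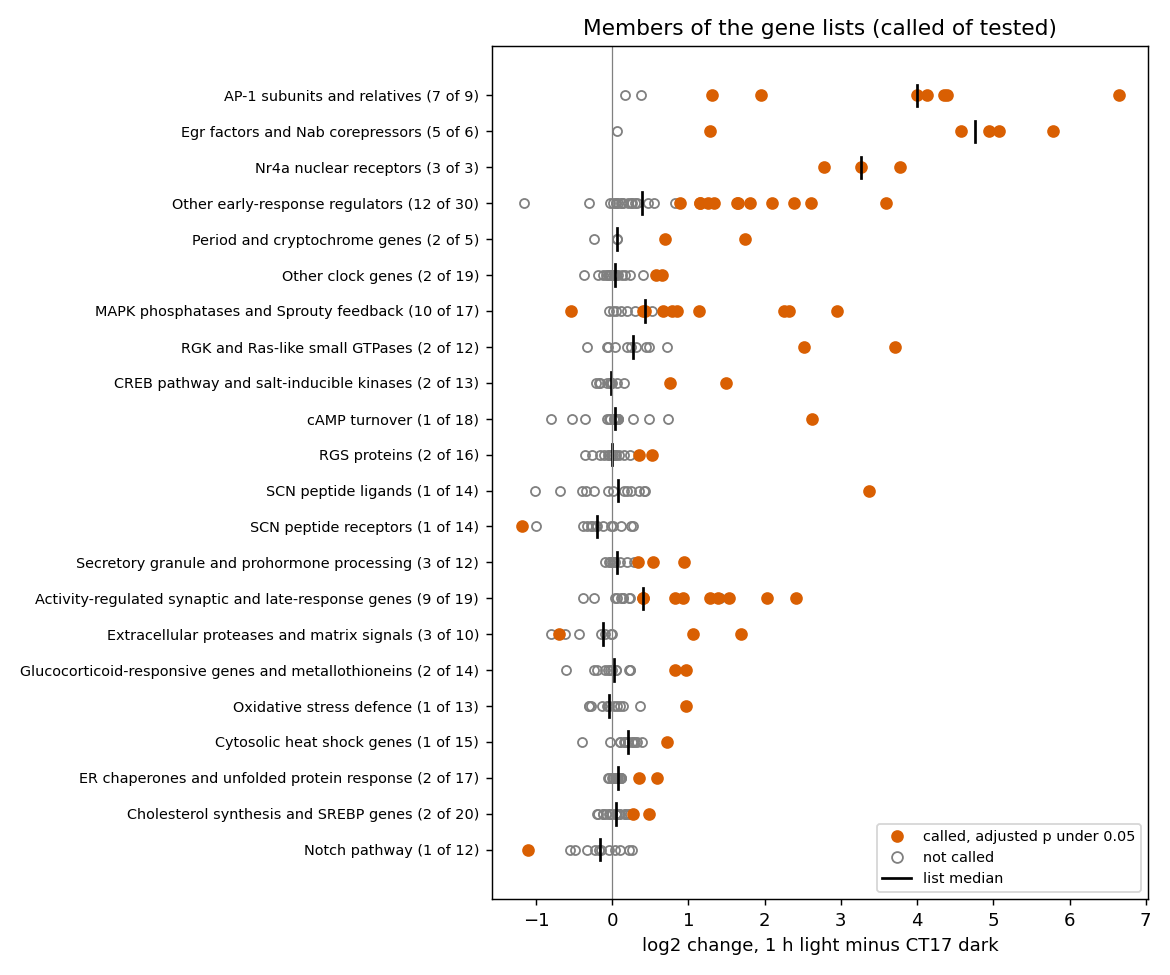
Log2 change (1 h light minus CT17 dark, x axis) of every tested member of the gene lists that held a called gene, 1 row a list, with called of tested members in brackets. Filled points passed at an adjusted p of 0.05, open points did not, and black bars mark list medians. The medians of the AP-1, Egr and Nr4a lists lie at 4.00, 4.76 and 3.26. Of their members, Nab1, Jdp2 and Jund lie below 0.5 and did not pass. The median of every other list plotted also lies below 0.5.

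The genes called higher were looked up in the RefSeq promoter table of the build GRCm38.p6, and 125 of 161 had a window. The full cAMP response element, TGACGTCA, which reads the same on both strands, lay in the 250 bases upstream of the start in 18 of the 125 genes (14.4%), against 330 of 11111 genes tested (2.97%). The shorter element TGACG, sought on both strands and contained in every full element, lay in 76 genes (60.8%), against 29% of all. The E-box CACGTG lay in 24 (19.2%), against 9.5% of all. The AP-1 motif TGANTCA was in 4.8%, against 5.54% of all, and the Egr motif GCGTGGGCG in 2.4%, against 1.18% of all. The serum response element core was sought only as an exact sequence, with no variants allowed. It was found in none of the 125 and in 3 of all 11111 (0.027%). With so few matches among all genes, its absence from the 125 cannot tell whether their promoters hold or lack serum response elements. Of the 19 lower genes with a window, 1 held the full element and 3 the shorter one. A match describes letters and does not show that a factor binds there. The windows of the 6 genes with the largest change among the 18 with the full element are printed to show where it lies, on GRCm38.p6 and in the direction of the gene: Maff at chr15:79347270-79347519 on the plus strand, Btg2 at chr1:134079156-134079405 on the minus strand, Dusp1 at chr17:26508473-26508722 on the minus strand, Arl4d at chr11:101665291-101665540 on the plus strand, Tinf2 at chr14:55681818-55682067 on the minus strand and Plk2 at chr13:110394794-110395043 on the plus strand. Capitals mark the full element, whose first base lies 29 bases before the start in Maff and 166, 143, 26, 56 and 62 bases before it in the other 5, in the order listed.
Maff: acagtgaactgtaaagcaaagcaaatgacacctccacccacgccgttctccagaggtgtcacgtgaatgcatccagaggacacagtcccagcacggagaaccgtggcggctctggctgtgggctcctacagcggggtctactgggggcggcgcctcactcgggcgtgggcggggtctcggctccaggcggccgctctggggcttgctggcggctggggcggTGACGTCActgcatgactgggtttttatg
Btg2: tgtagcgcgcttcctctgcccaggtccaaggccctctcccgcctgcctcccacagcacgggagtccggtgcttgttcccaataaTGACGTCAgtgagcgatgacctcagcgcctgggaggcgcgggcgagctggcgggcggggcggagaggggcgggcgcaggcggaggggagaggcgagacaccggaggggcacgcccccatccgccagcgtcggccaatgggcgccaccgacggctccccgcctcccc
Dusp1: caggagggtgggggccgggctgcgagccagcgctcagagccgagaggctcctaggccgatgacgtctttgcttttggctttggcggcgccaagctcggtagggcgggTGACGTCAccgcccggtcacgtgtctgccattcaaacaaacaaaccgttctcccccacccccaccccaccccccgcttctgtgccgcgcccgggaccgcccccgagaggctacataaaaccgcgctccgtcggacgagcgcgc
Arl4d: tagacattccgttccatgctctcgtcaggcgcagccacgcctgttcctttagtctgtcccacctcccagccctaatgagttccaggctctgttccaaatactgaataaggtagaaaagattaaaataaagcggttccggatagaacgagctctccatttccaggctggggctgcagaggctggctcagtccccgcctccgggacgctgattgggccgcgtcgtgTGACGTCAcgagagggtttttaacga
Tinf2: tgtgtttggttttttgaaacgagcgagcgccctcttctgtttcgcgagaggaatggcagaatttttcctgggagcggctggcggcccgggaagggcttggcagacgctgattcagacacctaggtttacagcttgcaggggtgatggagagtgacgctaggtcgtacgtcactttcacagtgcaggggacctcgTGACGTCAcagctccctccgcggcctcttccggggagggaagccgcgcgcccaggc
Plk2: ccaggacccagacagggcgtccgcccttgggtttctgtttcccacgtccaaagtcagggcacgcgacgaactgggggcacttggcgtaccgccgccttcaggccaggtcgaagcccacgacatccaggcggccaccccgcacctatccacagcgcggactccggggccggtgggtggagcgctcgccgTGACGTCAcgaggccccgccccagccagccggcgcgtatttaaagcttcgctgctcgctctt

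Fos and Nr4a1, chosen as strongly changed genes, show the shorter element alone. Fos (plus strand, chr12:85473640-85473889) held it at 2 places and Nr4a1 (plus strand, chr15:101266596-101266845) at 4. Capitals mark TGACG, or CGTCA where it lies on the opposite strand.
Fos: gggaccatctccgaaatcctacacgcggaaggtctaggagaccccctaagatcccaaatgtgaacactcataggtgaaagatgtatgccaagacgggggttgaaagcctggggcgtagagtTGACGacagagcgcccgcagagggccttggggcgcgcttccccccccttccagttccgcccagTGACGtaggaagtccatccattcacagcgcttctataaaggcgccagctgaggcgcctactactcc
Nr4a1: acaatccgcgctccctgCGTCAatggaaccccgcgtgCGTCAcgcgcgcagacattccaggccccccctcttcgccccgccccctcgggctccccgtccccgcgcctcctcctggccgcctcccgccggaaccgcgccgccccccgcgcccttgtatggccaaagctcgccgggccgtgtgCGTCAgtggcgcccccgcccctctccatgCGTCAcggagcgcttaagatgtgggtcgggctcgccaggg

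Acetylation of histone H3 at lysine 27 (H3K27ac), found at active regulatory DNA, was profiled in SCN with and without 1 h of light, with 1 peak list for each, from 2 pairs of SCN a sample. The light list had a peak over the promoter window in 74 of the 125 higher genes and the dark list in 83. Over all genes with a window these numbers were 5056 and 5302 of 11111. Where both lists had a peak, the authors' fold enrichment had a median of 7.94 in light and 8.3 in the dark over 63 higher genes, with a median ratio of 1.01. The median ratio over all 4259 genes with both was 0.911. Over the upstream of the Per1 windows the fold was 11.2 in light and 10.9 in the dark, and over the Fos window it was 5.30 in light and 7.69 in the dark. The lists have no replicates, so these values describe the libraries.

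Of 5 Period and cryptochrome genes, 2 were higher and none lower, with a median of 0.068. Per1 had 185 and 179 CPM in light and 51.5, 58.5, 48.2 and 54.9 CPM in the dark, a clear separation and a change of 1.74 ± 0.096 (adjusted p = 1e-08). Per2 had 103 and 81.6 CPM in light and 59.0, 53.4, 55.1 and 55.4 CPM in the dark, a change of 0.69 ± 0.090 (adjusted p = 0.000257), and the light libraries lay apart from each other as well as above the dark. Per3, Cry1 and Cry2 did not pass, with changes of -0.24 ± 0.090, 0.060 ± 0.069 and 0.068 ± 0.073. Per3 lay lower in both light libraries (60.6 and 55.7 CPM) than in every dark library (76.3, 64.1, 79.6 and 79.0 CPM). Of 19 other clock genes, 2 were higher and none lower, and their median was 0.034. Bhlhe40, which encodes the repressor DEC1, had 76.1 and 77.3 CPM in light and 50.05, 52.0, 54.9 and 55.4 CPM in the dark, a change of 0.57 ± 0.060. Rora, an activator that binds the same elements as the REV-ERB repressors, had 201 and 166 CPM in light and 115, 108, 111 and 114 CPM in the dark, a change of 0.66 ± 0.11. The call of Rora ended when light library 1 was left out (adjusted p = 0.158). Arntl, Clock, Nr1d1 and Nr1d2 had changes of 0.076, 0.047, 0.034 and -0.033, all with adjusted p-values above 0.9.

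Of 17 genes that restrain MAP kinase signalling, 9 were higher and 1 lower, with a median of 0.43. Dusp4, a nuclear phosphatase of ERK, had 25.5 and 29.2 CPM in light and 3.37, 4.15, 3.64 and 3.19 CPM in the dark, a change of 2.95 ± 0.16. Dusp1, which acts on p38, JNK and ERK, had 69.7 and 60.0 CPM in light and 13.6, 14.3, 12.7 and 12.4 CPM in the dark, a change of 2.26 ± 0.11. Dusp5, also nuclear and selective for ERK, rose by 2.32 ± 0.19, and Dusp10 by 0.85 ± 0.11. The Sprouty genes Spry4 and Spry2, inhibitors of receptor tyrosine kinase signalling, rose by 1.14 ± 0.12 and 0.66 ± 0.084. Errfi1, an inhibitor of the EGF receptor, rose by 0.78 ± 0.11. Smaller rises were seen in Dusp14 and Dusp16. The single lower member was Dusp7, a cytoplasmic ERK phosphatase, with 14.5 and 18.9 CPM in light and 24.8, 24.9, 29.0 and 29.8 CPM in the dark, a change of -0.55 ± 0.100 (adjusted p = 0.0077). That call ended without light library 1 (adjusted p = 0.222) and in the 12 libraries without the suffix (0.0623). Dusp6 had a change of 0.53 ± 0.13 that did not pass (adjusted p = 0.0838).

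Of 12 RGK and Ras-like GTPase genes, 2 were higher, both of the RGK family that lowers current through voltage-gated calcium channels. Rrad had 47.3 and 52.6 CPM in light and 2.92, 3.71, 3.96 and 5.27 CPM in the dark, a change of 3.71 ± 0.17 (adjusted p = 7.16e-10). Gem had 28.4 and 28 CPM in light and 4.50, 4.38, 4.89 and 5.53 CPM in the dark, a change of 2.51 ± 0.14. Rasd1, the gene of the small G protein Dexras1, had 107 and 107 CPM in light and 129, 125, 138 and 136 CPM in the dark and did not pass (change of -0.34 ± 0.11, adjusted p = 0.229). Of 13 genes of the CREB pathway, Sik1 and Crem were higher. Sik1, a kinase that keeps CREB coactivators in the cytoplasm, had 129 and 129 CPM in light and 44.9, 46.9, 36.4 and 36.6 CPM in the dark, a change of 1.497 ± 0.096. Crem, whose short product ICER represses cAMP-responsive genes, rose by 0.76 ± 0.13. Counts per gene do not separate ICER from the other Crem transcripts, and the call ended without light library 1 (adjusted p = 0.0957). Creb1 itself had a change of -0.025.

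Gpr3, a receptor that raises cAMP without an added ligand, was the 1 gene called among 18 of cAMP turnover. It had 12.4 and 10.5 CPM in light and 1.65, 2.08, 1.64 and 1.89 CPM in the dark, a change of 2.62 ± 0.18 (adjusted p = 1.22e-07). Of 16 regulators of G-protein signalling, Rgs16 and Rgs2 were higher by 0.53 ± 0.11 and 0.35 ± 0.076. Rgs16, enriched in the dorsal SCN, had 93.9 and 94.7 CPM in light and 65.3, 63.2, 67.7 and 60.8 CPM in the dark. Rgs2 had 124 and 115 CPM in light and 101, 88.1, 118 and 126 CPM in the dark, and its light libraries lay above dark libraries 1 and 2 but overlapped 1s and 2s. With the label batch in place of the suffix the change of Rgs2 was -0.013, the 1 called gene named here whose sign turned. In the 12 libraries without the suffix neither was called (adjusted p = 0.0772 and 0.196), whereas a fit of light with dark libraries 1 and 2 alone called Rgs16 (0.00279) and not Rgs2 (0.142). Neither call held without light library 1 (0.183 and 0.48) or light library 2 (0.131 and 0.0621). Without dark library 2 the adjusted p was 0.103 for Rgs16 and 0.165 for Rgs2. Without dark library 1 Rgs16 also lost its call (0.0809), as did Rgs2 without dark library 1s or 2s (0.056 and 0.0511).

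Of 14 SCN peptide ligand genes 1 was higher and none lower, and of 14 receptor genes 1 was lower and none higher. With the label batch in place of the suffix, 3 ligands were higher and 2 lower, and 2 receptors higher and 4 lower. Prok2, a secreted output signal of the SCN, had 18.5 and 15.2 CPM in light and 1.57, 1.78, 0.708 and 0.813 CPM in the dark. Both light libraries were far above the dark ones, and the change was 3.37 ± 0.28 (adjusted p = 1.33e-06). The other 13 ligand genes tested did not pass, and the list median was 0.080. Vip and Grp, peptides of the light-receiving core, had changes of 0.0064 ± 0.14 and 0.25 ± 0.17. Avp, the peptide of the SCN shell, had 33.0 and 36.5 CPM in light and 74.8, 75.2, 81.4 and 119 CPM in the dark. Although both light libraries lay below all dark libraries, the change of -1.02 ± 0.39 did not pass (adjusted p = 0.403). Fits of only the 6 libraries, or of light with dark libraries 1 and 2 alone, do call Avp lower (adjusted p = 0.00501 and 8.06e-06), and the fit of 12 libraries without the suffix does not (0.5). The lower receptor gene, Npy6r, whose product belongs to the NPY receptors, had 8.74 and 6.27 CPM in light and 19.8, 13.3, 23.6 and 22.5 CPM in the dark, a change of -1.19 ± 0.20 (adjusted p = 0.00422), and it lost its call without light library 2 (0.101). Prokr2, the receptor of Prok2, had a change of 0.27 ± 0.15 that did not pass.

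In the secretory pathway 3 of 12 genes were higher and none lower. Vgf, which encodes a secreted neuropeptide precursor induced by activity, had 275 and 304 CPM in light and 125, 182, 111 and 120.3 CPM in the dark, a change of 0.95 ± 0.13 (adjusted p = 0.000612). Pcsk1, a prohormone convertase, rose by 0.54 ± 0.12. Scg2, secretogranin II, rose by 0.34 ± 0.077 and had the highest RPKM level of all genes called higher, 1398 in light and 1066 in the dark. The calls of Pcsk1 and Scg2 were near the threshold (adjusted p = 0.0487 and 0.045). In the 12 libraries without the suffix Pcsk1 was not called (0.213) and Scg2 was (0.034), whereas in light with dark libraries 1 and 2 alone Pcsk1 was called (0.0206) and Scg2 was not (0.145). Neither held with RLE scaling (0.0584 and 0.0598), nor Scg2 without a filter on low counts (0.0557), and with the label batch the change of Scg2 was 0.51. The calls ended without light library 1 (0.451 and 0.423), light library 2 (0.166 and 0.165), dark library 1 (0.217 and 0.214), 1s (0.0878 and 0.0687) or 2 (0.0554 and 0.234), and that of Pcsk1 also without 2s (0.0565).

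Synaptic and late-response genes known to respond to activity numbered 19, of which 9 were higher and none lower, with a median of 0.40. Arc, whose protein drives removal of AMPA receptors from synapses, had 41.4 and 44.7 CPM in light and 7.49, 7.94, 8.11 and 7.57 CPM in the dark, a change of 2.42 ± 0.099. Homer1, a scaffold of group I metabotropic glutamate receptors, had 143 and 134 CPM in light and 32.3, 34.6, 32.3 and 33.7 CPM in the dark, a change of 2.03 ± 0.091. The short activity-induced Homer1a form is not separated from the long forms in counts per gene. Plk2, a kinase of activity-dependent synaptic scaling, had 69.7 and 73.5 CPM in light and 26.8, 29.5, 29.7 and 29.6 CPM in the dark, a change of 1.28 ± 0.075. Nptx1, a secreted pentraxin that gathers AMPA receptors, had 142 and 134 CPM in light and 77.4, 81.5, 89.7 and 93.9 CPM in the dark, a change of 0.82 ± 0.092, or 0.55 with the label batch in place of the suffix. Arl4d, Pim1 and Plk3 rose by 1.54 ± 0.22, 1.39 ± 0.18 and 0.93 ± 0.12, and the neuronal glucose transporter gene Slc2a3 and Rheb, an activator of mTORC1, by 0.41 ± 0.065 and 0.40 ± 0.079. Bdnf had a change of 0.059 and Nptx2 of -0.38, and neither passed.

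Genes of matrix, stress and metabolism changed one or a few at a time. Among the matrix genes, the metalloprotease gene Adamts1 was higher, by 1.06 ± 0.22, and its relative Adamts9 was lower, with a change of -0.70 ± 0.16. In the 12 libraries without the suffix neither Adamts gene passed (adjusted p = 0.0747 and 0.117), whereas a fit of light with dark libraries 1 and 2 alone called Adamts1 (0.00032) and not Adamts9 (0.0822). Neither passed without light library 1 (0.222 and 0.653) or light library 2 (0.113 and 0.0657). Leaving out single dark libraries ended the call of Adamts1 without 1 or 2 (0.0978 and 0.117) and that of Adamts9 in all 4 cases (adjusted p between 0.0531 and 0.217). Srxn1, which repairs oxidised peroxiredoxins, was the 1 gene called of 13 in oxidative stress defence, with 163 and 148 CPM in light and 80.2, 80.5, 85.7 and 82.2 CPM in the dark and a change of 0.96 ± 0.057 (adjusted p = 2.7e-08). Dnajb1, an HSP40 cochaperone, was the 1 gene called of 15 cytosolic heat shock genes, with a change of 0.72 ± 0.094, and 6 were called higher with the label batch in place of the suffix. The suffix term itself was called lower for 6 of the 15. Hspa1a and Hspa1b, near-identical copies whose reads can be split, had changes of -0.033 and -0.39. Of 14 glucocorticoid-responsive and metallothionein genes, Sgk1 and Cdkn1a rose by 0.97 ± 0.15 and 0.83 ± 0.14. Cdkn1a lost its call without light library 1 (adjusted p = 0.0876), and both lost it with no covariate (0.122 for Sgk1 and 0.0874 for Cdkn1a). With the label batch in place of the suffix both were called at smaller changes, 0.52 for Sgk1 and 0.50 for Cdkn1a.

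Of 17 genes of the unfolded protein response, the transcription factor genes Ddit3 and Atf4 were higher, by 0.59 ± 0.11 and 0.35 ± 0.070, and the chaperone genes of the list were not. Among the cholesterol and SREBP genes, Cyp51, an enzyme of sterol synthesis, rose by 0.28 ± 0.063. With the label batch in place of the suffix, 7 of the 20 genes were called higher, Cyp51 by 0.53, while Ddit3 and Atf4, at 0.31 and 0.20, were not called. The suffix term itself was called lower for 7 of the 20 cholesterol and SREBP genes. The calls of Ddit3, Atf4 and Cyp51 did not hold in the 12 libraries without the suffix (adjusted p = 0.0772 for Ddit3, 0.117 for Atf4 and 0.182 for Cyp51). Without light library 1 the values were 0.272, 0.28 and 0.168, and without dark library 2 they were 0.0565, 0.0956 and 0.136. Atf4 and Cyp51 also lost their calls without light library 2 (0.0752 and 0.326), and Cyp51 did so without dark library 1, 1s or 2s (0.207, 0.0878 and 0.0742).

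Many lists had no member past the threshold with the suffix term. None of 23 potassium channel genes, 21 calcium, sodium, HCN and TRP channel genes and 25 glutamate and GABA receptor genes passed, with medians of -0.034, 0.038 and 0.035. With the label batch in place of the suffix, 3 potassium channel genes were lower, 2 of the other channel genes were higher, and 3 receptor genes were higher and 1 lower. With the suffix term no member passed among the 5 neurotrophin and receptor genes, 13 genes of gp130 cytokine signalling, 14 semaphorin genes, 7 class IIa HDAC and MEF2 genes, 15 SCN identity transcription factors and both cold-inducible RNA-binding protein genes. Cirbp and Rbm3 had changes of -0.033 ± 0.12 and 0.41 ± 0.16. The 13 interferon-responsive genes had a median of -0.40 with none past the threshold. Across the gene lists as a whole, 450 genes were tested, 70 were higher and 4 lower, where 1.11% and 0.158% of all genes tested were. The lists were drawn up with earlier results of these data known, so this count is no independent measure of enrichment.

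The other 91 higher genes stood in no list. Those described here were chosen after their values were seen. Gprc5a, an orphan receptor gene, had 4.26 and 2.99 CPM in light and 0.150, 0, 0.322 and 0.260 CPM in the dark. With a dark library at 0, its change of 4.12 ± 0.56 depends on the small count added to it. Apold1, an immediate-early gene of endothelial cells, had 9.05 and 8.14 CPM in light and 2.248, 2.82, 4.22 and 3.64 CPM in the dark, a change of 1.64 ± 0.17. Midn had 116 and 103 CPM in light and 40.7, 48.0, 37.7 and 37.7 CPM in the dark, a change of 1.37 ± 0.11. Tinf2, a shelterin subunit at telomeres whose promoter is printed above, had 26.2 and 22.9 CPM in light and 9.74, 9.05, 10.1 and 10.6 CPM in the dark, a change of 1.37 ± 0.12. Both genes were clearly separated. The splicing factor gene Cwc25 and the nucleolar deubiquitinase gene Usp36 rose by 1.21 ± 0.093 and 1.15 ± 0.082. Irs2, an adaptor of insulin receptors, had 217 and 207 CPM in light and 89.9, 120.2, 81.3 and 80.4 CPM in the dark, a change of 1.02 ± 0.11. Ghsr, the ghrelin receptor gene, had 27.4 and 26.4 CPM in light and 14.6, 15.2, 14.3 and 15.5 CPM in the dark, a change of 0.78 ± 0.11. Usp2, a deubiquitinase of clock proteins, had 67.7 and 64.4 CPM in light and 41.5, 48.5, 41.1 and 42.5 CPM in the dark, a change of 0.55 ± 0.085.

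The 23 lower genes had a median change of -0.56. Hes5, a Notch effector and the 1 gene called of 12 in the Notch pathway, had 3.65 and 5.38 CPM in light and 8.69, 11.7, 8.47 and 6.60 CPM in the dark, a change of -1.11 ± 0.25 (adjusted p = 0.0418). Fzd10 and Fzd8, Wnt receptor genes, had 1.14 and 1.27 CPM and 8.21 and 10.0 CPM in light, against 3.52, 2.67, 2.48 and 2.80 CPM and 13.7, 13.7, 12.8 and 14.5 CPM in the dark. Their changes were -1.26 ± 0.25 and -0.70 ± 0.14. Rp1 had 1.44 and 1.49 CPM in light and 4.50, 2.37, 1.58 and 1.66 CPM in the dark, and dark library 1 stood highest. Its change was -1.30 ± 0.30, and with the label batch, summed libraries or no covariate it was -0.18, -0.56 and -0.71 and was not called (adjusted p = 0.81, 0.207 and 0.59). Hs3st1, a heparan sulfate sulfotransferase gene, and Ankrd34a fell by 0.55 and 0.51. Leaving out light library 1 left 2 lower calls of all genes tested, leaving out light library 2 left 42, and 1 and 10 of the 23 were among them. Without light library 1 the adjusted p was 0.626 for Hes5, 0.251 for Fzd10, 0.407 for Fzd8, 0.42 for Rp1 and 0.0957 for Hs3st1. Without light library 2 it was 0.0572 for Hes5, 0.093 for Fzd10, 0.23 for Rp1 and 0.103 for Hs3st1. Leaving out dark library 1 ended the calls of Hes5, Fzd10 and Rp1 (0.0645, 0.0858 and 0.254), 1s those of Hes5 and Rp1 (0.0787 and 0.0834), 2 that of Hes5 (0.214) and 2s that of Rp1 (0.0731). All 15 lower genes singled out by the naming rule lost their call in 1 or more of the 17 alternatives tried, as did 12 of 58 higher ones.

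Several lower genes, picked out after their values were seen, are known from myelinating cells. Fa2h, which makes the hydroxylated fatty acids of myelin, had 28.4 and 36.1 CPM in light and 49.5, 51.9, 61.1 and 62.7 CPM in the dark, a change of -0.57 ± 0.13, or -0.97 with the label batch in place of the suffix. Padi2, a peptidylarginine deiminase gene expressed in oligodendrocytes, had 31.0 and 37.5 CPM in light and 55.1, 61.5, 48.5 and 57.4 CPM in the dark, a change of -0.66 ± 0.13. Sox8, a factor of the oligodendrocyte lineage among others, had 26.2 and 31.3 CPM in light and 38.1, 45.6, 36.3 and 37.9 CPM in the dark, a change of -0.50 ± 0.091. The summed oligodendrocyte markers moved the same way, as given above, and all 10 had negative changes, from -0.59 for Mag to -0.36 for Cnp. None of the 10 passed, the smallest adjusted p being 0.0964, whereas all 10 were called lower with the label batch in place of the suffix. The suffix term itself was called higher for 5 of the 10, with a median of 0.35. Without light library 1 neither Fa2h nor Padi2 was called (adjusted p = 0.626 and 0.308), nor were they without dark library 2 (0.161 and 0.063), nor Fa2h without dark library 1 (0.125). Light library 1 was the lowest of the 6 for these markers and for Fa2h, Padi2 and Sox8 alike. In bulk tissue, fewer cells of a type and less RNA per cell cannot be told apart, and the part of these cells in the lower genes was not tested.

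**Figure D3:**
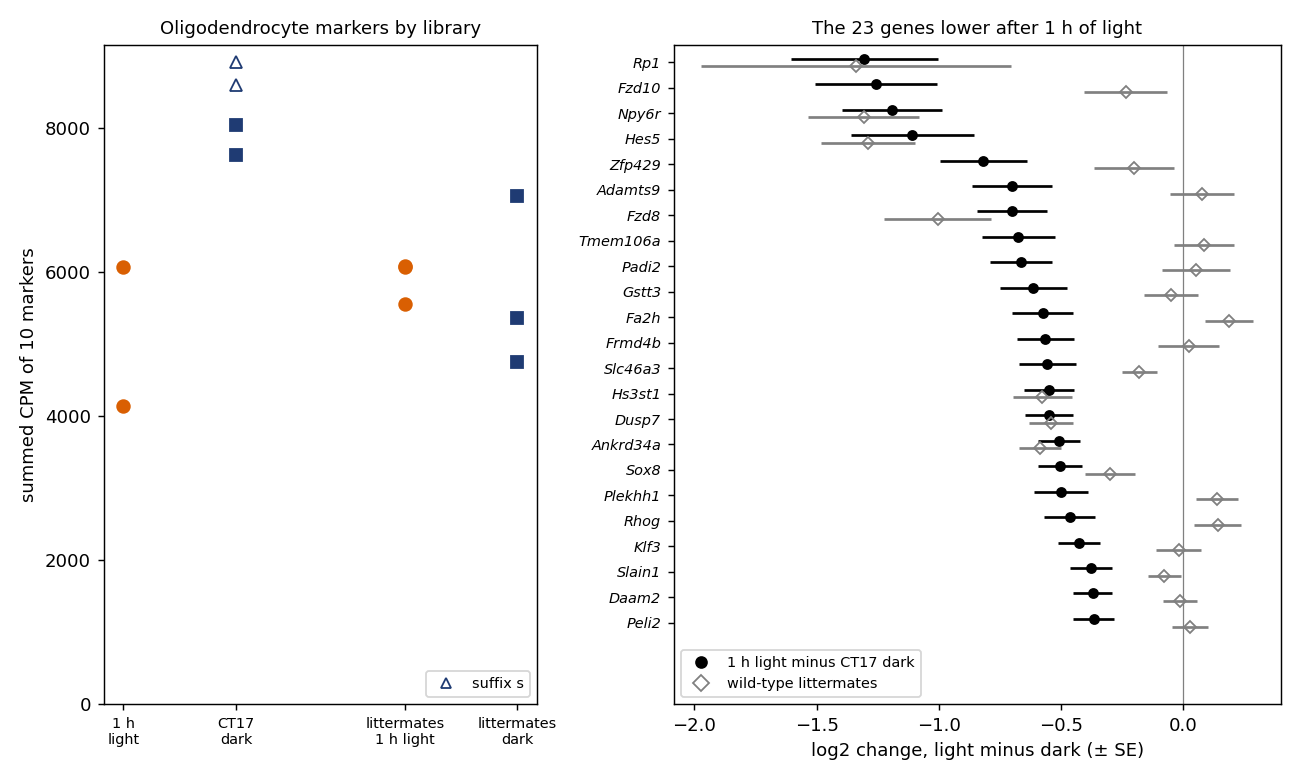
Left, summed CPM of 10 oligodendrocyte markers in each library of 1 h light, CT17 dark, and light and dark wild-type littermates; right, log2 change ± SE of the 23 lower genes (black circles) and of the same genes in wild-type littermates (grey diamonds). The light libraries sit at 4143 and 6070.4, below all 4 CT17 dark libraries, whereas littermate groups overlap and 17 of the 23 genes were not called there.

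The other marker lists had no called gene apart from the 2 SCN neuron markers Prok2 and Rgs16. The medians were 0.057 for 7 pan-neuronal, 0.18 for 3 GABAergic, -0.16 for 10 astrocyte, -0.12 for 7 microglia and -0.17 for 7 endothelial markers. GABAergic markers summed to 2081 and 1979 CPM in light and 1643, 1821, 1506 and 1435 CPM in the dark, with light above every dark library. Markers of neighbouring hypothalamic neurons summed to 447 and 449 CPM in light and 428, 443, 280.1 and 328 CPM in the dark, where the light libraries resembled dark libraries 1 and 2 and lay above 1s and 2s. The median change of the 13 genes was -0.31, and -0.65 in the 12 libraries without the suffix, opposite in sign to the difference in the summed level. Medians for the remaining cells were -0.14 for precursors, -0.27 for mural cells, -0.022 for ependymal cells and tanycytes, -0.098 for choroid plexus, -0.38 for erythroid cells, -0.20 for glutamatergic neurons and -0.94 for meningeal fibroblasts, the last -0.13 in the 12 libraries without the suffix.

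The 1 h response was placed beside the other durations of light, which share the CT17 dark libraries with it. At 0.5 h, 68 genes (0.468%) were called, with 0.454% of all genes tested higher and 0.0138% lower. At 3 h, 471 genes (3.24%) were called, with 2.2% higher and 1.05% lower. Of the 161 genes higher at 1 h, 56 were called at 0.5 h, 91 at 3 h, 40 at both and 54 at neither. At 3 h 89 of the 91 were higher and 2 lower. The direct steps do not take the dark libraries as a reference, although these help to set the suffix term that enters the 0.5 h level. Both steps reuse the 1 h libraries on which the 161 genes were chosen. That favours a rise into 1 h and a fall after it, so their counts are a description. From 0.5 h to 1 h, 63 of the 161 rose and 2 fell, where 0.496% of all genes were called, 0.434% higher and 0.062% lower. From 1 h to 3 h, 8 rose and 60 fell, where 1.53% of all genes were called, 0.806% higher and 0.723% lower. The 2 genes lower at 1 h than at 0.5 h were Btg2 and Arc, at steps of -0.54 ± 0.088 and -0.56 ± 0.091. Of the 23 lower genes, none was called at 0.5 h and 5 at 3 h, 4 lower and 1, Adamts9, higher.

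Individual genes differed in their course. Fos averaged 6.84 ± 0.856 CPM in CT17 dark, 215 ± 11.5 CPM at 0.5 h, 146 ± 3.06 CPM at 1 h and 29.9 ± 5.53 CPM at 3 h (SD, n = 4, 4, 2 and 2). Here n counts libraries, those with the suffix s included. Homer1 averaged 33.2 ± 1.13 CPM in the dark, 36.9 ± 1.58 at 0.5 h, 138 ± 6.26 at 1 h and 65.4 ± 10.5 at 3 h. Fos was thus already high at 0.5 h, while Homer1 was not called there (adjusted p = 1) and took a step of 1.88 ± 0.090 by 1 h. Prok2 averaged 1.22 ± 0.538 CPM in the dark, 2.17 ± 0.961 at 0.5 h, 16.9 ± 2.30 at 1 h and 12.3 ± 0.249 at 3 h, with a step of 2.51 ± 0.27 to 1 h. Per1 averaged 53.3 ± 4.43, 97.3 ± 7.98, 182 ± 4.06 and 83.5 ± 3.02 CPM over the same order. Per2 averaged 55.7 ± 2.33, 56.6 ± 3.76, 92.5 ± 15.4 and 122 ± 3.12 CPM. Per1 was thus highest at 1 h among these times, whereas Per2 was not above the dark at 0.5 h and rose again by 0.40 ± 0.094 from 1 h to 3 h (adjusted p = 0.0477). Vgf, Rora, Srxn1 and Nptx1 also stepped up from 1 h to 3 h, by 0.86, 0.69, 0.77 and 0.95. Sgk1 and Dnajb1 had steps of -1.63 and -1.11 from 1 h to 3 h, and both lay below the dark at 3 h (adjusted p = 0.039 and 0.0386).

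**Figure D4:**
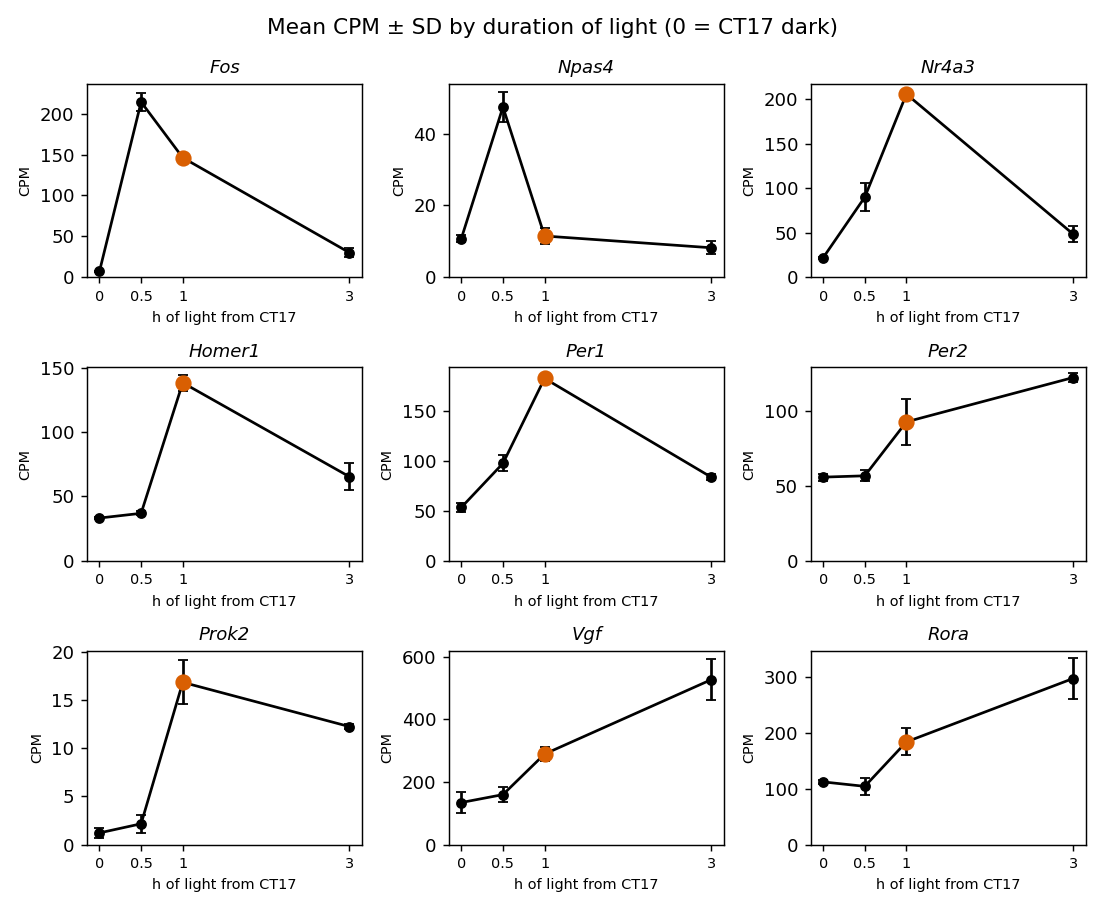
Mean CPM ± SD in CT17 dark (0, n = 4), and after 0.5 h (n = 4), 1 h (n = 2, orange) and 3 h (n = 2) of light from CT17 for 9 genes. Each n counts libraries, those with the suffix s included. Npas4 is near 11.4 CPM at 1 h after 47.4 CPM at 0.5 h, Homer1 and Per1 are highest at 1 h, and Vgf and Rora are highest at 3 h.

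The wild-type littermates of the Npas4 null mice give the same contrast in other libraries, with 3 of 1 h light from CT17 and 3 of dark, each again a pool of 6 pairs of SCN. When their dark controls were collected is not given in the sources used here. There, 386 of 15001 genes (2.57%) were called, 335 (2.23%) higher and 51 (0.34%) lower. With the replicate number as a block, 755 were called (5.03%, with 555 or 3.7% higher and 200 or 1.33% lower). The block treats same-numbered libraries as pairs, which rests on their numbers alone. Of the 161 genes higher here, all 161 were tested there with the same sign and 149 were called, that is 92.5%, or 159 (98.8%) with the block. In the other direction, 44.5% of the littermates' higher calls were called here, or 28.6% with the block. Among the 12 not called there were Atf4, Cyp51, D8Ertd738e, Ddit3, Dusp14, Rgs16, Rgs2, Rhot2, Scg2, Taf7 and Wbp5. With the block, Rgs16 and Scg2 were the 2 not called. Of the 23, 15 had the same sign and 6 were called lower in the littermates, namely Ankrd34a, Dusp7, Hs3st1, Fzd8, Hes5 and Npy6r. These are 11.8% of the littermates' 51 lower calls. With the block the same 6 were called, which are 3% of 200. No gene was called in opposite directions.

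**Figure D5:**
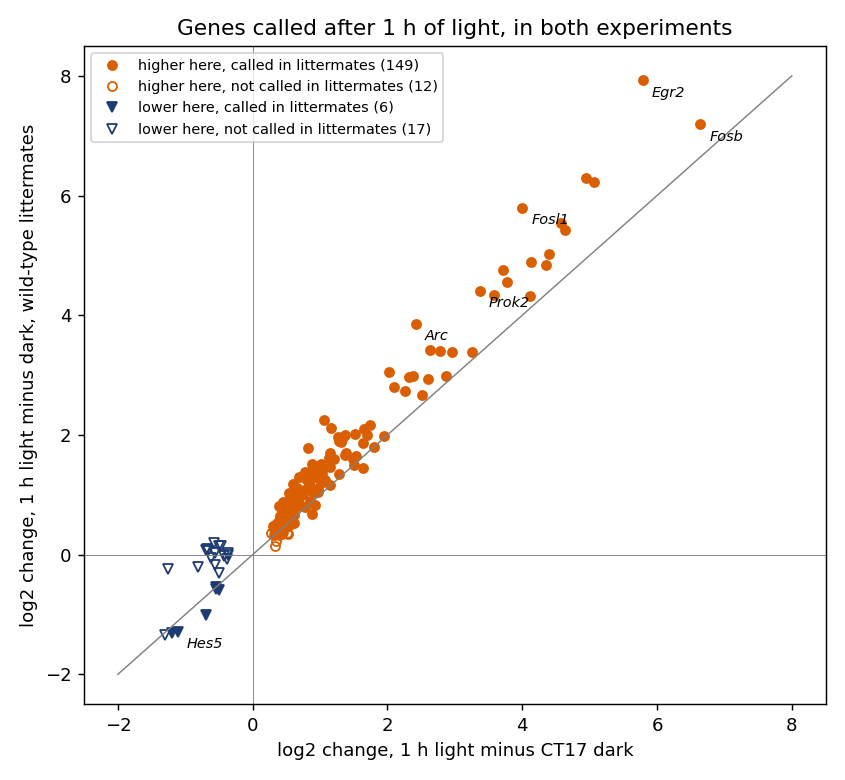
Log2 change of the 184 called genes after 1 h of light (x axis) against the log2 change of the same genes in wild-type littermates (y axis), with the line of equal change in grey. Filled symbols were called in the littermates; most higher genes lie above the line, and the open triangles of lower genes lie around 0 on the y axis.

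Estimates were larger in the littermates for most of the higher genes, 141 of 161, with medians of 0.82 here and 1.11 there. Arc had 104, 72.7 and 93.9 CPM in light and 6.51, 5.90 and 6.33 CPM in dark littermates, a change of 3.85 ± 0.22, where it was 2.42 ± 0.099 here. Homer1 had 292, 256 and 299.8 CPM in light and 34.7, 37.2 and 30.3 CPM in dark littermates, a change of 3.05 ± 0.16. Per2 had 114, 123 and 145 CPM in light and 53.0, 52.0 and 51.5 CPM in dark littermates, a change of 1.29 ± 0.092. These 3 genes had smaller changes here, although the difference was not called: in a joint fit of 28 libraries, 0 of 15380 genes had a response that differed between the experiments by edgeR's quasi-likelihood test, the smallest adjusted p was 0.304, and 744 genes had an unadjusted p under 0.05. With the littermates' replicate block the count was again 0, with a smallest adjusted p of 0.149 and 1096 genes at an unadjusted p under 0.05. Npas4 had 13.7, 10.7 and 14.0 CPM in light and 8.64, 8.20 and 8.34 CPM in dark littermates, a change of 0.61 ± 0.23 that did not pass (adjusted p = 0.34). Prok2 had 18.4, 9.11 and 13.5 CPM in light and 0.769, 0.492 and 0.670 CPM in dark littermates, a change of 4.41 ± 0.41. Scg2 had 2766, 2713 and 2593 CPM in light and 2017, 3102 and 2210.2 CPM in dark littermates, where the groups overlapped (adjusted p = 0.999). Npy6r had 9.16, 9.50 and 11.1 CPM in light and 17.8, 33.5 and 22.2 CPM in dark littermates, a change of -1.31 ± 0.23, and Hes5 one of -1.29 ± 0.19. For Fa2h the littermate change was 0.19 ± 0.098 and for Padi2 0.054 ± 0.14, and neither passed, with oligodendrocyte markers summing to 5552, 6071 and 6082 CPM in light and 5352, 4752 and 7056 CPM in dark littermates. Avp, lower in both light libraries here, had 691, 259 and 201 CPM in light and 286, 207 and 211 CPM in dark littermates, with a change of 0.71 ± 0.34 that did not pass.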

How the data were processed

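The values are gene counts from mRNA sequencing of pooled SCN tissue. The authors deposited raw counts per gene symbol and RPKM values of the same libraries. The submitters' processing notes name STAR 2.7.1a and 2.5.2b, HTSeq 0.9.1, featureCounts 1.6.2 and the build mm10, and which of them made each table, and whether counting used strand, is not given in the sources used here. Without strand, reads of overlapping and antisense genes cannot be told apart. The authors' H3K27ac peak lists give a fold enrichment over background and a −log10 q-value for each peak, and the processing notes name MACS2 2.1.1.

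Counts were scaled by TMM and filtered with filterByExpr, and 14524 of 21999 genes were tested by edgeR's quasi-likelihood test (edgeR 4.0.16, limma 3.58.1, R 4.3.3). The 16 light-pulse libraries were fitted with group and suffix, so that all groups shared 1 estimate of the spread. P-values were adjusted by Benjamini-Hochberg over all genes tested, with a threshold of 0.05. The 12 libraries of the Npas4 experiment, wild-type and null, were fitted in the same way. There same-numbered light and dark littermate libraries deviated together to a small degree (correlations 0.198, 0.249 and 0.264), and a replicate block was also fitted. These correlations do not show by themselves that the pools were collected as pairs. The joint fit of 28 libraries, the block in it and in the overlap with the littermates, and DESeq2 on the libraries without the suffix were added after seeing the data.

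Named genes were the 20 most raised and 15 most lowered called genes with separated libraries and a mean of 1 CPM or more, the called members of each list (at most 6) and all members of lists of 6 or fewer, and a fixed set that includes Npas4, Vip, Avp and Grp. Members and lists were chosen with earlier results of these data known. In simulated counts with known changes, over 14432 genes, 88% to 90% of genes changed by a log2 of 1 were recovered for the 1 h comparison. Of 14232 unchanged genes, 15 were called. The simulated counts held no suffix difference and only changes by a log2 of 1 or 2. They do not show how often smaller changes are recovered. Promoter windows came from RefSeq, and a peak counted when it overlapped the 300-base window. H3K4me3 lists, the null mice's own response and single-nucleus libraries were not analysed here, and some genes of the lists are not reported here. Alternatives included DESeq2 1.42.0, RLE scaling, no filter, other covariates and each library left out.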

Additional observations from a re-analysis of the deposited data

Results flagged for a closer look

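In the 4 CT17 dark libraries, 2 of 87 named genes had a library far from the others. Chance marks about 1 in 20 such groups, which is more than were found. Plk2, the kinase of synaptic scaling, was lowest at 26.8 CPM in dark library 1, against 29.5 CPM in the nearest library. Avp, the shell peptide, was highest at 119 CPM in dark library 2s, against 81.4 CPM in the nearest library.

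The log2 step from 0.5 h to 1 h of light passed the test for 31 named genes, 26 of them higher at 1 h and 5 lower. Over all genes tested 0.496% passed, 0.434% higher and 0.062% lower. Most named genes were chosen by their calls at 1 h in these same libraries. That favours a rise for those called higher and a fall for those called lower, so the count is a description. Among early factors the step was 2.42 for Fosl1, 1.596 for Fosl2, 1.54 for Maff, 1.22 for Nr4a3, 0.99 for Nr4a2, 1.20 for Csrnp1 and 0.88 for Nab2. For genes of intracellular signalling it was 1.61 for Rrad, 1.11 for Gem, 1.23 for Dusp5, 1.21 for Dusp4, 0.76 for Dusp10 and 0.60 for Spry4. For receptors and secreted products it was 2.72 for Gprc5a, 2.51 for Prok2, 1.98 for Gpr3 and 0.69 for Vgf. For synaptic and late-response genes it was 1.88 for Homer1, 0.98 for Pim1, 0.78 for Nptx1, 0.65 for Plk3 and 0.45 for Plk2. The clock genes Per1, Rora and Per2 had steps of 0.87, 0.77 and 0.68, and Srxn1 one of 0.91. The 5 genes lower at 1 h than at 0.5 h were Npas4 (-2.02), Tmem106a (-0.74), Arc (-0.56), Btg2 (-0.54) and Hs3st1 (-0.50).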

How the results depend on the processing

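Of 58 higher named genes 46 kept their call in all 17 alternatives, and of 15 lower ones none did. Against 184 calls (161 higher, 23 lower), the libraries without the suffix gave 119 (9 lower), the label batch in place of the suffix 1218 (638 higher, 580 lower), and libraries of 1 number summed 880 (467 higher, 413 lower). DESeq2 gave 51 lower calls. Leaving out 1 library gave 107 to 166 calls, 105 to 143 higher and 2 to 42 lower. Whether same-numbered light and dark libraries share more than a number is not known. The difference between the light libraries correlated at 0.149 with that between dark 1 and 2, and at 0.063 with that between 1s and 2s. A replicate block gave 219 calls, 36 of them lower, with all 184 among them. In the littermates a replicate block gave 755 calls (555 higher, 200 lower), DESeq2 gave 80 lower calls, and leaving out 1 library gave 262 to 359 calls, 243 to 321 higher and 15 to 38 lower. Calls at a log2 change of -1 or less numbered 2, against 4, in the libraries without the suffix. Sign changes were seen in Nab1 (label batch -0.098, no covariate -0.035, summed libraries -0.067), Arnt2 (label batch 0.0060, summed 0.0010), Rgs2 (label batch -0.013), Cirbp (label batch 0.28, no covariate 0.12, summed 0.20) and Vip (label batch -0.25, no covariate -0.16, summed -0.23). Leaving out 1 library moved Npas4 between -0.093 and 0.30, Arnt2 between -0.14 and 0.048, Cirbp between -0.059 and 0.052 and Vip between -0.057 and 0.056. The causes were not tested. Per3 and Avp, not called, were called lower in some alternatives (Per3 with the label batch, adjusted p = 0.0111). With 2 light libraries, small changes are the least certain: of 38 higher genes with a log2 change under 0.5, 11 were called without the suffix libraries.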

Other observations

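Summed, the 161 genes higher after 1 h of light had 16060 and 15450 CPM in the light libraries, against 9345, 9444, 9257 and 9421 CPM in the dark libraries. The genes were chosen as higher in these same libraries, so the direction of this difference was fixed by the choice.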
